A study of Mus musculus with 4 samples.

Results

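Mymk (myomaker, ENSMUSG00000009214, chromosome 2) and Mymx (myomixer, ENSMUSG00000079471, chromosome 17) encode the muscle-specific membrane proteins that drive myoblast fusion. They are 2 of the 25827 genes listed for every library, found by their symbols, and were chosen for their function. During muscle repair, satellite cells leave quiescence, divide, exit the cell cycle with the transcription factor myogenin (Myog) and fuse with each other or with damaged fibres. Myomaker acts in the earlier step in which the outer membrane leaflets of neighbouring cells mix, and myomixer, a micropeptide, acts in the later step in which the fusion pore opens. Both genes are known to be switched on by the MyoD and myogenin family of transcription factors and to be silenced once fibres are mature.

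The libraries came from the tibialis anterior muscles of 12-week-old mice, 6 days after injection of cardiotoxin, a snake toxin that kills fibres and starts regeneration. The control group (Pax7Cre) carries a Cre recombinase driven from Pax7, the satellite cell gene, and the knockout group (miR-501KO, Pax7CremiR-501fl/Y) carries the same Cre with a floxed miR-501 allele, so that both groups share the Cre and the injury and the deletion is limited to cells with a history of Pax7. Cells negative for CD45, CD31 and Sca1 and positive for alpha7 integrin were sorted as myogenic progenitors. Each genotype has 2 libraries, 1 from each of 2 runs, and each library pools 3 mice, so that the spread between libraries is a spread between pools.

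Of 16519 barcodes, 10450 had at least 5000 UMIs (unique molecular identifiers, each counting 1 captured RNA molecule) and at least 1000 genes. These were 3439 and 1829 cells in the Pax7Cre libraries and 2833 and 2349 cells in the miR-501KO libraries, with median depths between 25254 and 34579 UMIs a cell, and 10 barcode sequences were found in more than 1 library. The cells were clustered without Mymk and Mymx, and classes were named from fixed markers, to which neither gene belongs. Clusters 16, 17 and 18, with 68, 659 and 32 cells, came almost wholly from miR-501KO replicate 1 (97.1%, 100% and 96.9% of their cells). They had raised markers of unlike lineages and stayed unnamed, and cluster 17 had Gzma and Nkg7 of cytotoxic lymphocytes and Mylpf of muscle among its leading genes. Their 14 macrophage markers (Lyz2, Cd74 and others) summed to 2958 CPM (UMIs scaled to the total of the cells summed) in that library, against 19.8 to 37.6 CPM in committed-like cells of the 4 libraries. The sort excluded CD45, the protein of Ptprc, yet 347 macrophage-like cells were also present. Comparisons over all cells and over Myog-positive cells are therefore given with and without these 3 clusters.

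The deleted miRNA is not measured in these libraries, since no feature is named Mir501, so the genotype labels could not be checked on it. Its mature sequence, from RefSeq (GRCm38.p6), is shown with the seed (bases 2 to 8) in capitals, because the seed is what a direct target would have to match.
mmu-miR-501-3p: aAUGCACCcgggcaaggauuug
The match to this seed, GGTGCAT, occurred 0 times in the longest annotated transcript of Mymk (1382 bases) and 0 times in that of Mymx (804 bases), in the GENCODE M21 annotation of GRCm38. Of the longest protein-coding transcripts of 21877 genes, which have a median length of 2681 bases, 11.8% held it. The absence says only that these letters are not in these transcripts.

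Both fusion genes were concentrated in committed-like cells, the class marked by Myog, the cell-cycle inhibitor Cdkn1c and early sarcomere genes. There, Mymk was at 699.5, 555, 698 and 752 CPM in Pax7Cre replicates 1 and 2 and miR-501KO replicates 1 and 2. Mymx was at 822, 598, 649.9 and 784 CPM in the same order. Every committed-like library was above every other named class for both genes, and the classes did not overlap. The ratio of the committed-like to the cycling-like level was 44.9 ± 13.4 (SD, n = 4 libraries) for Mymk and 18.4 ± 3.13 for Mymx, with the 3 clusters from 1 library left out.

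The order of the levels continued from committed-like to cycling-like cells and then to classes that could not be separated. In cycling-like cells, Mymk was at 13.3, 14.2, 24.2 and 12.8 CPM. Mymx was at 38.1, 40.9, 37.9 and 38.7 CPM there, which were close together. In macrophage-like cells, which should express neither gene, Mymk spanned 3.80 to 19.4 CPM and Mymx 3.04 to 31.6 CPM. Mymk in cycling-like cells overlapped this range, whereas Mymx in cycling-like cells, taken as 1 class, lay above it in all 4 libraries. In cluster 8 of this class, however, Mymx was at 9.40 to 15.2 CPM, within the range of macrophage-like cells.

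Quiescent-like cells, marked by Pax7, Myf5 and Vcam1, held little of either gene. Mymk was at 5.99, 2.98, 3.73 and 4.59 CPM and Mymx at 9.57, 6.79, 6.94 and 4.81 CPM, and both ranges overlapped those of macrophage-like, mural-like (0 to 15.01 CPM for Mymk and 1.14 to 18.0 CPM for Mymx) and Schwann-like cells (0 to 4.19 CPM and 1.23 to 7.77 CPM). With every cell thinned to 5000 UMIs, 1.61% to 3.47% of quiescent-like cells had a Mymk UMI and 1.71% to 4.24% had a Mymx UMI. Unthinned, these were 6.44% to 10.9% and 5.61% to 15.1%, at median depths of 20650 to 26927 UMIs. In macrophage-like cells the thinned shares were 2.83% to 10.1% and 0% to 6.33%, at median depths of 16915 to 20824 UMIs. The 0% is 0 of 50 cells in Pax7Cre replicate 2, which allows a share of up to 6%. The ranges of the 2 classes overlapped for both genes, so the quiescent-like shares are not read here as expression.

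**Figure D1:**
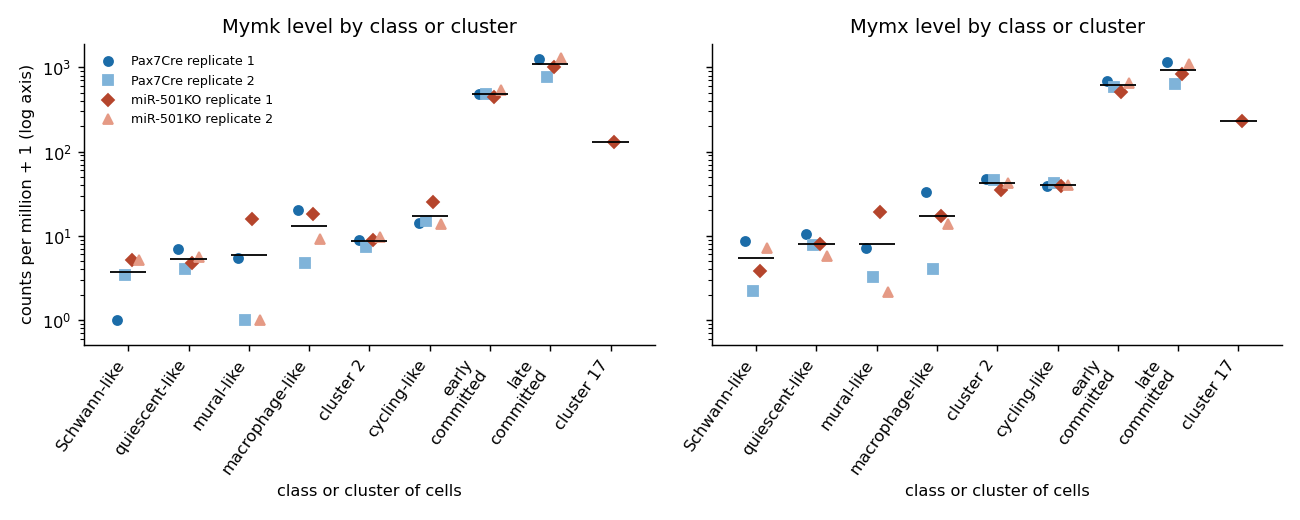
Levels of Mymk (left) and Mymx (right) in CPM + 1 on a log axis, by class or cluster, with 1 point for each library holding at least 20 cells and a line at their mean. The 4 libraries of the early and late committed clusters lie far above all other named classes, cluster 2 differs between the genes, and cluster 17, seen in miR-501KO replicate 1, lies between the cycling-like and committed-like cells.

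Outside the committed-like class, Mymx was measured in cells where Mymk was within the range of macrophage-like cells. Cluster 2 held 1938 cells from all 4 libraries and was led by Tnfsf11 and Spp1, a secreted phosphoprotein of the matrix. It had too few raised markers of any class to be named. There, Mymx was at 45.7, 44.8, 34.1 and 41.7 CPM, a range that takes in that of cycling-like cells, while Mymk was at 7.93, 6.36, 7.85 and 8.54 CPM. At 5000 UMIs, Mymx was detected in 9.63% to 14.0% and Mymk in 1.61% to 3.38% of its cells. The number of Mymx UMIs for each Mymk UMI was 5.77, 7.04, 4.35 and 4.88 in cluster 2, against 0.932 to 1.18 in committed-like cells, and the ranges did not overlap. In cycling-like cells it was 2.87, 2.89, 1.57 and 3.02. UMI counts are not scaled by length and depend on how well each transcript is captured, so the change of this ratio between cells is read here and not its value.

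The same shift appeared along the Myog level of single cells. With the 3 clusters from 1 library left out, cells were placed by their Myog UMIs of 5000. At 2 to 3 Myog UMIs, Mymk was detected in 12.1%, 5.88%, 17% and 13.3% of cells. Mymx was detected in 32.1%, 39.2%, 24.0% and 37.3% of the same cells, more than Mymk in each of the 4 libraries. At 4 to 7 Myog UMIs, Mymk was in 29.3% to 40.9% and Mymx in 53.1% to 64.6% of cells. At 8 or more Myog UMIs the gap had narrowed, with Mymk in 73.9% to 77.7% and Mymx in 77.3% to 86.4%. In cells with no Myog UMI, Mymk was in 1.33% to 2.61% and Mymx in 3.29% to 5.96%, in or near the range of macrophage-like cells.

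**Figure D2:**
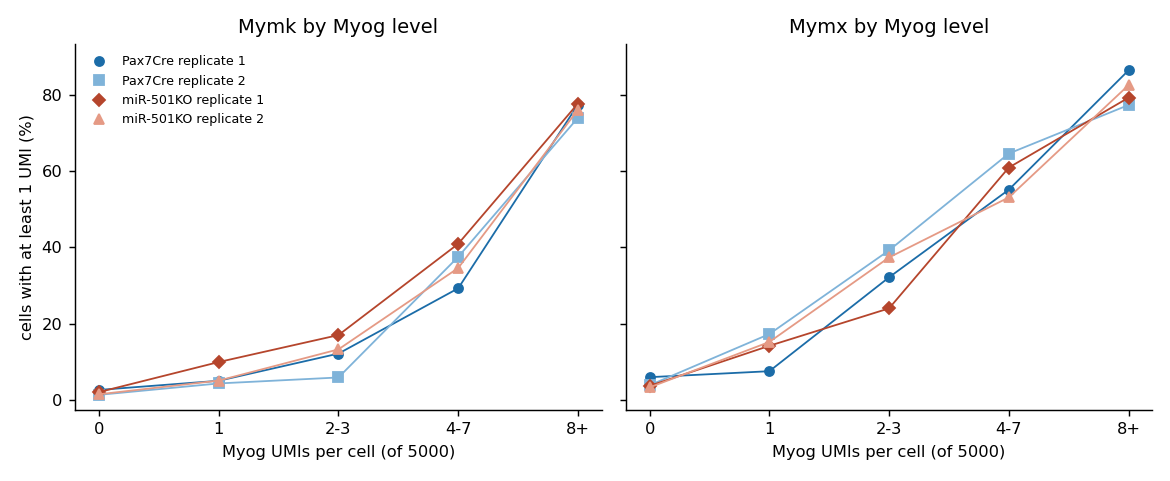
Percent of cells with at least 1 Mymk (left) or Mymx (right) UMI, against the Myog UMIs of the cell, all counts thinned to 5000 UMIs a cell, with 1 line for each library and clusters 16 to 18 left out. At 2 to 3 Myog UMIs the Mymk lines lie at 5.88% to 17% and the Mymx lines at 24.0% to 39.2%, and at 8 or more they come close together.

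Cells with both transcripts were almost always Myog-positive. With the same clusters left out, 98.6% to 99.4% of cells with UMIs of both genes also had a Myog UMI, against 88.4% to 91.9% of cells with Mymk and 80.7% to 85.4% of cells with Mymx. Pax7 was detected in 1.82% to 6.94% of the cells with both. Cells with Mymk lay in the committed-like class in 62.0% to 77.8% of cases and cells with Mymx in 50.9% to 61.4%. Within committed-like cells, 64.3%, 53.3%, 61.1% and 63.1% had both transcripts, where independent detection at the same shares would give 57.9%, 43.6%, 52.6% and 58.3%. The excess had the same direction in all 4 libraries, and Mymx was detected in 83.7% to 89.2% of committed-like cells with Mymk and in 40.8% to 61.4% of those without.

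The committed-like class held an early cluster (cluster 7, 1028 cells) and a late cluster (cluster 10, 319 cells) led by the embryonic and perinatal myosin genes Myh3 and Myh8. Mymk was at 475, 478, 447 and 531 CPM in the early cluster and at 1246, 766, 1015 and 1303 CPM in the late cluster. Mymx was at 684, 583, 509.7 and 659.8 CPM in the early cluster and at 1159, 639.5, 827 and 1092 CPM in the late cluster. Mymk was thus 2.62, 1.60, 2.27 and 2.45 times as high in the late as in the early cluster and Mymx 1.70, 1.10, 1.62 and 1.66 times. Myog did not follow, at 4301, 4052, 3627 and 4627 CPM in the early and 4086, 2026, 2967 and 3958 CPM in the late cluster. The number of Mymx UMIs for each Mymk UMI was 1.14 to 1.44 in the early and 0.815 to 0.930 in the late cluster, and the ranges did not overlap.

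The lower values of Pax7Cre replicate 2 in the late cluster went with 17 cells that had very high sarcomere RNA. Over all libraries, 29 cells had 800 or more UMIs of the 15 early sarcomere genes (of 5000), with 2, 17, 5 and 5 in the 4 libraries, and all 29 lay in the late cluster. Ckm, the creatine kinase of mature muscle, was detected in 29 of them, Myog in 4, Mymk in 1 and Mymx in 0 at 5000 UMIs. Unthinned, Mymk was at 18.2 CPM in the 17 cells of Pax7Cre replicate 2 and at 26.0 CPM in the 5 cells of miR-501KO replicate 1, far below the other cells of the cluster. The 11 mature myofibre genes summed to 2934, 9390, 8030 and 3731 CPM over committed-like cells, and their part in the values was not tested. Without these cells, a choice made after seeing the data, the late cluster had Mymk at 1264, 1231, 1169 and 1375 CPM and Mymx at 1176, 1036, 956 and 1153 CPM. The late level was then 2.58 to 2.66 times the early level for Mymk and 1.72 to 1.88 times for Mymx, in narrow ranges that did not overlap.

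Along the sarcomere sum, both genes therefore climbed and then were nearly absent. The mean per cell, in UMIs of 5000, was at most 0.0421 for Mymk and 0.127 for Mymx in cells with 0 to 9 sarcomere UMIs. At 50 to under 200 sarcomere UMIs it was 3.48, 4.20, 3.38 and 2.86 for Mymk and 4.98, 4.23, 3.28 and 3.67 for Mymx. At 200 to under 800 it was 5.86, 5.35, 5.71 and 6.49 for Mymk, and 89.7% to 100% of these cells had Mymk. Mymx was at 5.63, 5, 4.29 and 5.21 in the same cells and was detected in 80.0% to 94.5% of them. The last group, with 800 or more, holds fewer than 20 cells in each library.

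**Figure D3:**
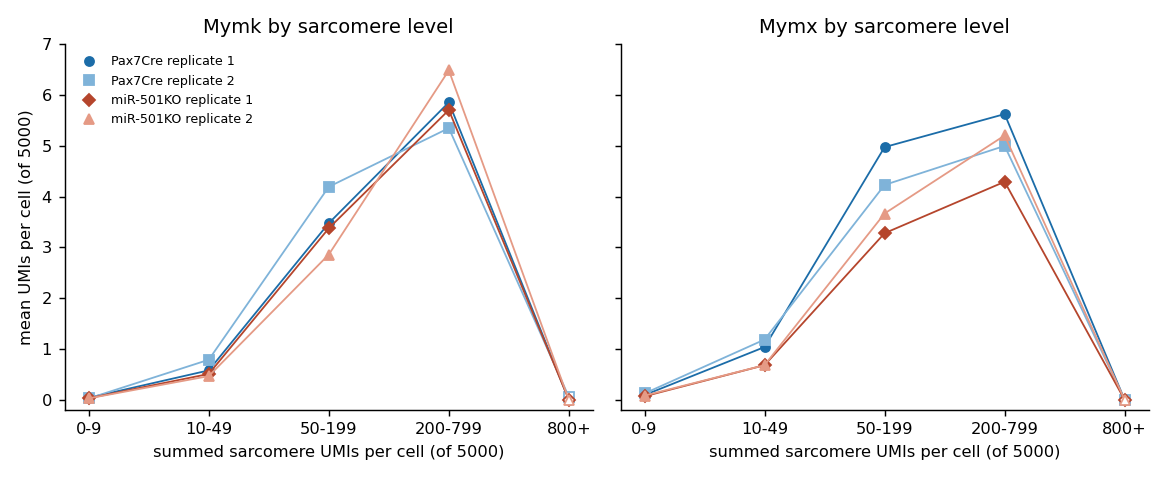
Mean Mymk (left) and Mymx (right) UMIs per cell, thinned to 5000 UMIs, against the summed UMIs of 15 early sarcomere genes, with 1 line for each library and clusters 16 to 18 left out; open points are groups of fewer than 20 cells. Both genes peak at 200 to under 800 sarcomere UMIs, where Mymk reaches 5.35 to 6.49, and lie near 0 in the 29 cells with 800 or more.

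Both fusion genes were lower in Myog-positive cells with a moderate amount of cell cycle RNA than in those with little. Unless stated, the clusters that came almost wholly from miR-501KO replicate 1 are left out here. Among Myog-positive cells with 0 to 4 UMIs of the 17 cycling markers, Mymk was detected in 53.5%, 49.3%, 54.8% and 49.7% and Mymx in 61.5%, 59.7%, 57.9% and 60.8%. With 20 to 49 cycling UMIs, Mymk was in 8.97%, 27.1%, 31.3% and 23.1% and Mymx in 32.4%, 41.7%, 38.3% and 35.9%. The mean was 1.83 to 2.33 Mymk UMIs a cell with 0 to 4 cycling UMIs and 0.172 to 0.678 with 20 to 49. For Mymx it was 2.12 to 2.64 against 0.604 to 0.783. The ranges did not overlap for either gene. In the few cells with 50 or more cycling UMIs (12 to 32 a library), Mymk was in 25%, 25.8%, 50% and 31.6% and Mymx in 46.9%, 41.9%, 50% and 57.9%, each no lower than with 20 to 49 apart from Mymk in Pax7Cre replicate 2. With 5 to 19 cycling UMIs, Mymk was in 22.8%, 23.1%, 35.7% and 33.1% and Mymx in 32.8%, 38.5%, 49.4% and 43.2%. With the left-out clusters kept, this group held 839 cells of miR-501KO replicate 1, with Mymk in 44.8% and Mymx in 65.8%. In that library the group with 0 to 4 cycling UMIs then had 54.3% and 56.6%. The share with Mymx was thus not lower with 5 to 19 cycling UMIs there, whereas that with Mymk was. Myog itself was not held constant in these groups.

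The levels of each of the pair were compared with those of 8729 other genes with a mean of at least 10 CPM. The comparison ran over 25 sums of a library and a named class. Mymx was closest to Myog (Pearson r = 0.99 of log2(CPM + 1)), then Tnnt2, a troponin (0.98), Casz1 (0.97), Klhl40, a sarcomere-stabilising protein (0.97), and Mymk (0.96). Mymk was closest to Myog (0.96), then Actc1, an actin (0.96), Mymx (0.96), Arhgdig (0.96) and Tnnt2 (0.96). The sums share 4 libraries and the values are carried by the step from other classes to committed-like cells. They are a description without a test.

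Most other genes of the fusion pathway did not share this pattern. Of 8730 genes with a mean of at least 10 CPM, 30.7% were higher and 49.9% lower in committed-like than in quiescent-like cells in 4 of 4 libraries, with a median log2 ratio of -0.15. Among the upstream regulators, 7 of 15 were higher and 6 lower by the same count over 4 libraries. Myog was at 3880 ± 538 CPM in committed-like and 36.2 ± 7.82 CPM in quiescent-like cells (SD, n = 4 libraries). Pax7 went from 8.34 ± 0.542 CPM in the former to 204 ± 19.9 CPM in the latter, and Id3, an inhibitor of MyoD-family dimers, from 58.5 ± 13.5 to 465 ± 125 CPM.

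Of the adhesion and contact genes, 2 of 13 were higher and 9 lower in committed-like cells, with a median log2 ratio of -0.74. Cdh15, the muscle cadherin, was at 176 ± 12.6 CPM in committed-like and 362 ± 22.1 CPM in quiescent-like cells. Itgb1, the integrin beta 1 subunit, was at 357 ± 35.9 against 436 ± 60.3 CPM, and the tetraspanin Cd81 at 379 ± 38.7 against 445 ± 42.9 CPM. Of the genes for phosphatidylserine recognition and actin remodelling, 3 of 17 were higher and 12 lower. The phosphatidylserine-binding annexins were among the latter, with Anxa5 at 194 ± 18.9 against 772 ± 31.0 CPM and Anxa1 at 204 ± 20.6 against 371 ± 14.8 CPM. These shares of higher genes lie below the 30.7% of all genes, by counts without a test.

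Ferlins and membrane trafficking genes were split, with 2 of 6 higher and 2 lower. The higher ones were Bin1, which shapes membrane tubules, at 688 ± 49.1 against 153 ± 5.90 CPM, and Cav3, the muscle caveolin, at 199.2 ± 38.1 against 4.29 ± 0.296 CPM (named after its values were seen). Myof, the ferlin of myoblasts, was at 101 ± 12.9 against 99.8 ± 14.0 CPM. Dysf, the ferlin of membrane repair, was at 15.5 ± 4.20 against 1.09 ± 0.238 CPM and was higher in 4 of 4 libraries, but lies below the mean of 10 CPM and outside the 6. Of the secreted and proteolytic genes, 1 of 8 was higher and 5 lower, and Adam12, a metalloprotease of fusing myoblasts, was the one that was higher, at 33.0 ± 2.92 against 17.6 ± 2.90 CPM. Mmp14, a membrane-bound matrix metalloprotease, was at 40.4 ± 5.89 against 134 ± 5.35 CPM and Ctsb, a lysosomal protease, at 95.8 ± 9.03 against 168 ± 4.45 CPM. Of the TGF-beta genes, a pathway known to restrain fusion, 1 of 8 was higher and 7 lower, among them Tgfb2 (46.2 ± 3.01 against 151 ± 19.7 CPM) and Smad4 (64.9 ± 5.61 against 106 ± 14.3 CPM). All 15 early sarcomere genes were higher, with Acta1 at 6936 ± 2372 against 168 ± 62.0 CPM and Mylpf at 6235 ± 2860 against 209 ± 92.2 CPM. Some of these are markers that defined the class.

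The comparison between genotypes asked whether loss of miR-501 changed the RNA of the fusion genes. In committed-like cells, it was made on the values above, which overlapped between genotypes for Mymx. For Mymk, Pax7Cre replicate 1 lay between the miR-501KO libraries and Pax7Cre replicate 2 below them. The log2 fold change (miR-501KO over Pax7Cre) of Mymk was 0.18 ± 0.17 (SE) and that of Mymx -0.01 ± 0.20, with an adjusted p of 0.9997 for both (edgeR quasi-likelihood test on UMIs summed per library, Benjamini-Hochberg over 12084 genes, 2 libraries against 2). Each direction turned when 1 library was left out (Mymk -2e-04 without Pax7Cre replicate 2, Mymx 0.25 without Pax7Cre replicate 1 and 0.14 without miR-501KO replicate 1). Neither gene passed, and 0% of all genes did; 2.58% had an unadjusted p under 0.05. With the run as a block, 32 genes passed, neither of them a fusion gene, with a fold change of 0.19 for Mymk and -2e-04 for Mymx. DESeq2 called 2 genes, again neither of the pair.

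In cycling-like cells, Mymk stood at 24.2 CPM in miR-501KO replicate 1 and between 12.8 and 14.2 CPM in the other libraries. Its log2 fold change was 0.39 ± 0.19 (edgeR quasi-likelihood test, unadjusted p = 0.060, adjusted p = 0.9998) and, without miR-501KO replicate 1, -0.07. The Mymx values lay between 37.9 and 40.9 CPM, with a log2 fold change of -0.06 ± 0.13 (adjusted p = 0.9998 in edgeR). Here 0% of 13276 genes passed by edgeR, 2 by DESeq2, 32 with the run as a block, and 2.34% had an unadjusted p under 0.05.

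In quiescent-like cells, where both genes overlapped their levels in macrophage-like cells, the log2 fold change was -0.19 ± 0.32 for Mymk and -0.56 ± 0.24 for Mymx (edgeR, unadjusted p = 0.033, adjusted p = 0.994). Mymx was at 9.57 and 6.79 CPM in Pax7Cre and at 6.94 and 4.81 CPM in miR-501KO, which overlap. Of 12676 genes, 0.0237% passed, which is 3 genes, and a block for the run raised this to 97; 4.32% had an unadjusted p under 0.05. Set against each other in a single model, the effect in committed-like cells exceeded that in quiescent-like cells by 0.36 ± 0.22 for Mymk (adjusted p = 0.988) and 0.54 ± 0.21 for Mymx (unadjusted p = 0.037, adjusted p = 0.988, edgeR), and 0% of 13171 genes passed that test, with 3.46% at an unadjusted p under 0.05 and 1 called by DESeq2. Over all cells, Mymk was at 131, 103, 117 and 114 CPM and Mymx at 171, 129, 139 and 136 CPM. The fold changes were -0.04 ± 0.14 and -0.15 ± 0.16 on the log2 scale, neither gene passed in edgeR (adjusted p = 0.9998), and 0% of 15725 genes did, with 2.80% at an unadjusted p under 0.05 and 12 genes called by DESeq2. Without clusters 16 to 18, Mymk was at 112 and Mymx at 117 CPM in miR-501KO replicate 1, and the fold changes were -0.12 ± 0.16 and -0.32 ± 0.19 (edgeR, adjusted p = 0.9992 for both).

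**Figure D4:**
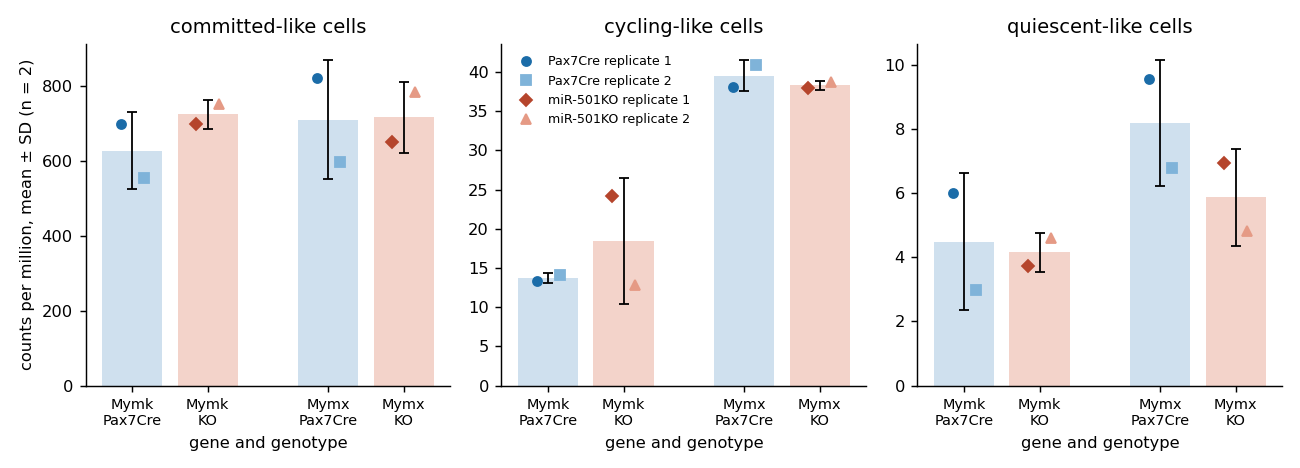
Levels of Mymk and Mymx in CPM in committed-like, cycling-like and quiescent-like cells by genotype; bars start at 0 and show the mean of 2 libraries, error bars the SD, and points the libraries. Within each panel the difference between genotypes is of the size of the spread between libraries, and the one distant point is Mymk in cycling-like cells of miR-501KO replicate 1, at 24.2 CPM.

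Shares of cells were compared over the same libraries. At 5000 UMIs, Mymk was detected in 72.1% and 63.7% of Pax7Cre committed-like cells, and in the miR-501KO libraries in 72.9% and 73.4%, a difference of 5.24 points (exact two-sided permutation test of 4 libraries, p = 0.333, the smallest that 2 against 2 can give). Mymx was in 80.3% and 68.5% against 72.1% and 79.5% (exact permutation p = 1). Wilson intervals (95%) of the Mymk shares ran from 57.8% to 78.4% over the 4 libraries and cover counting error only. Among Myog-positive cells, 35.4% and 34.6% of Pax7Cre and 33.5% and 33.3% of miR-501KO cells had both transcripts (exact permutation p = 0.333). Without clusters 16 to 18, which hold over 50% of the Myog-positive cells of miR-501KO replicate 1 (611 of 1357 remain), these shares were 35.4%, 34.5%, 34.9% and 33.3%, the genotypes overlapped, and the difference went from -1.62 to -0.851 points (exact permutation p = 0.667). Over all cells, miR-501KO replicate 1 stood apart, with Mymk in 23.4% and Mymx in 31.2% of cells against 11.6% to 15.2% and 15.9% to 21.0% in the other libraries, and without clusters 16 to 18 it had 14.8% and 17.9%.

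None of the fusion pathway lists held a called gene in committed-like or cycling-like cells or over all cells. By edgeR, 3, 2 and 3 of 16 regulators had an unadjusted p under 0.05 there, against 2.58%, 2.34% and 2.80% of all genes. In cycling-like cells, 4 of 15 sarcomere genes and 2 of 17 adhesion genes did so as well. There, 14 of the 15 sarcomere genes were higher in miR-501KO, against 6507 of all 13276 genes. All other counts for a list in these sets of cells were 0 or 1. In committed-like cells, the median log2 fold change was 0.11 for the regulators, -0.01 for adhesion, -0.01 for phosphatidylserine and actin genes, 0.26 for ferlins, -0.13 for secreted genes, 0.09 for TGF-beta and 0.08 for sarcomere genes, against 0.00 for all 12084 genes. Id3 had the lowest p of the regulators there, at 51.9 and 42.7 CPM in Pax7Cre and 70.6 and 68.6 CPM in miR-501KO (log2 fold change 0.53 ± 0.14, unadjusted p = 0.0042, adjusted p = 0.9997 in edgeR). In quiescent-like cells, 1 of 15 sarcomere genes passed, against 3 of all 12676 genes. This was Tnnt3, the fast skeletal troponin T, at 49.6 and 49.6 CPM in Pax7Cre and 92.1 and 122 CPM in miR-501KO, and it rose by a log2 fold change of 1.05 ± 0.16 (edgeR, adjusted p = 0.039). The call was lost at a clustering resolution of 1.0, where 0 genes passed in these cells (485 at an unadjusted p under 0.05). The 11 mature myofibre genes, of which Tnnt3 is one, summed to 387, 391, 491 and 629 CPM in the same cells, and their part in it was not tested.  The list's median there was 0.65, against 0.01 for all genes, with 13 of 15 members higher, against 6550 of all 12676 genes. The fold changes of Mymk and Mymx were below 0 in these cells, that of Mymk turning to 0.45 without Pax7Cre replicate 1.

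The Cd74-positive Myog-positive cells of miR-501KO replicate 1, which lie mostly in clusters 16 to 18, held both fusion transcripts at a level of their own. Cluster 17 had 659 cells with a median of 19689 UMIs, Mymk at 129.98 CPM and Mymx at 229 CPM, below the 447 to 531 CPM and 510 to 684 CPM of the early committed cluster. At 5000 UMIs, 44.6% of its cells had Mymk (95% Wilson interval 40.9% to 48.4%) and 68.1% had Mymx (64.5% to 71.6%), and unthinned 90.4% and 97.9%. In the early committed cluster 64.0% to 70.9% had Mymk and 65.1% to 79.1% had Mymx at 5000 UMIs, and unthinned 77.9% to 86.4% and 83.1% to 92.0%, at median depths of 30573 to 39236 UMIs. Unthinned, both genes were thus found in more cells of cluster 17 than in the early committed cluster, although its level and its depth were lower.

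The spread of the muscle transcripts between cells differed as well. In cluster 17, the variance of the thinned UMIs divided by their mean, which is close to 1 for cells that differ by sampling alone, was 1.04 for Mymk, 1.02 for Mymx, 1.04 for Myog and 1.26 for Acta1. In the early committed cluster it was 2.61, 3.03, 2.93 and 2.98 for Mymk, 3.16, 3.39, 2.33 and 3.27 for Mymx, 6.02 to 8.58 for Myog and 16.3 to 19.4 for Acta1. Mean thinned UMIs a cell in cluster 17 were 0.613 for Mymk, 1.18 for Mymx, 5.21 for Myog and 9.47 for Acta1. Those of the early committed cluster were 1.98 to 2.54, 1.90 to 3.18, 17.3 to 22.2 and 2.57 to 6.10. A lower mean can bring the ratio nearer to 1, and in cluster 17 the mean was lower for all but Acta1. Cd74 and Lyz2 had ratios of 1.0018 and 1.06 in cluster 17, with means of 2.87 and 4.16 thinned UMIs a cell. In the early committed cluster these ratios were 0.959 to 1.13 but for Cd74 in Pax7Cre replicate 1, at 2.70. The means of Cd74 and Lyz2 there were only 0.00971 to 0.0177 and 0.0221 to 0.0708 UMIs. At so few counts the ratio mostly lies near 1, so the spread of Cd74 and Lyz2 could not be compared between the clusters. The highest thinned count in a cell was 4 for Mymk in cluster 17, where its mean was lower, and 12 to 19 in the early committed cluster. Nor did both transcripts go together in cluster 17, where 30.2% of cells had both against 30.4% for independent detection, and Mymx was in 67.7% of cells with Mymk and in 68.5% of cells without. In the early committed cluster, the same shares were 75.5% to 86.2% and 46.8% to 65.0%. Cluster 17 is 1 library, so that these values have no replicate.

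**Figure D5:**
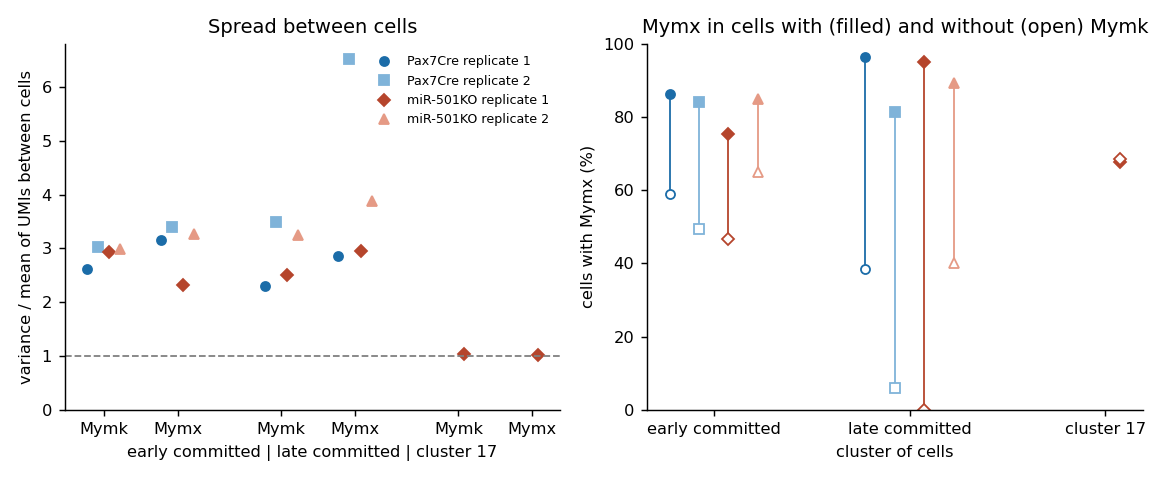
Left, variance divided by mean of thinned Mymk and Mymx UMIs between cells, by cluster and library, with a dashed line at 1; right, percent of cells with Mymx among cells with (filled) and without (open) Mymk. Cluster 17 lies at 1.04 and 1.02, with Mymx in 67.7% and 68.5%, while the committed clusters lie at 2.30 or more and have the filled points above the open ones in every library. The means of both genes were lower in cluster 17 than in the committed clusters.

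Over all clusters, the Myog-positive cells of miR-501KO replicate 1 numbered 650 with Cd74 and 707 without. The former had Mymk in 44.3% and a mean of 0.645 UMIs, the latter in 48.2% and 1.56 UMIs. Mymx was in 66.2% (mean 1.16 UMIs) and 55.9% (mean 1.59 UMIs). Macrophage markers summed to 18.7 and 1.48 UMIs a cell in these groups, and their part in the values was not tested. The other libraries held 29, 12 and 23 Myog-positive Cd74-positive cells, with Mymk in 17.2%, 25.0% and 56.5% of them and 132, 61.1 and 26.1 macrophage UMIs a cell. Without clusters 16 to 18, miR-501KO replicate 1 held 26 Myog-positive Cd74-positive cells, and 30.8% of them had Mymk and 26.9% Mymx. Of its Myog-positive cells without Cd74, 46.2% had Mymk and 53.0% Mymx.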

How the data were processed

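Droplet 3′ RNA libraries of sorted cells were sequenced and aligned by the authors with Cell Ranger. The file headers name version 6.0.2, while the study's methods give another release. The submitters' processing notes also list Seurat and the build GRCm39. Deposited values are raw UMI counts per gene and barcode, with no normalization. Barcodes under 5000 UMIs or 1000 genes were dropped, which keeps more cells than the study states for this filter (no limit on mitochondrial share, doublets kept; Scrublet in scanpy 1.11.5 marked 0.191% of cells, too few to rely on). Library totals over all barcodes ran from 73665012 to 117527749 UMIs. Counts were scaled to 10000, logged, reduced to 2000 variable genes (without Mymk and Mymx) and 30 components, and clustered on 15 neighbours with Leiden at 0.5. Clusters were named "-like" where at least 3 of a class's markers were raised 1.5 times and seen in 10% of cells, and no other lineage was near. Shares used cells thinned at random to 5000 UMIs; a floor of 3 counts sets the limit for a share of 0.

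Groups came from the sample labels. Libraries of a genotype differed by more than sampling (chi-square 13.0 to 70.8 for each degree of freedom), and p-values measure the spread between 2 pools of mice. UMIs summed per library and class were tested with edgeR 4.0.16 (R 4.3.3; TMM, filterByExpr, quasi-likelihood, adjusted p under 0.05), with DESeq2 1.42.0, RLE factors, no filter, other cell filters and resolutions, and each library left out as alternatives. On simulated counts of the same genes, edgeR recovered 67.0% of 2-fold and 94.5% of 4-fold changes in committed-like cells. The shares were 84.0% and 97.5% in cycling-like cells, 80.5% and 96.0% in quiescent-like cells and 67.5% and 87.5% over all cells. The dispersions were taken from the fitted trend, without variation between genes of like level, so recovery in the real libraries may be lower. The labels say that a replicate number marks a shared run, so the run was fitted as a block as well. The difference between runs within each genotype was correlated across genes between the genotypes. This correlation was -0.16 for the committed-like class and -8e-04 for the cycling-like class. It was 0.04 for the quiescent-like class and 0.23 when all cells were pooled.

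The 2 genes and all lists were chosen with earlier results of these data known. Named genes were the pair; per list the 2 with the highest CPM and any called gene; Myog, Pax7, Cdh15, Adam12 and Dysf; and the 5 most correlated with each of the pair. Genes named as leading a cluster were chosen after their values were seen. No coordinates are given, since the reference used here is GRCm38.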

Additional observations from a re-analysis of the deposited data

How the results depend on the processing

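Of 324 alternative values, 256 were counted as unchanged, 37 turned direction and 31 moved, and the causes were not tested. For differences in share, unchanged means the same direction, whatever the size. For fold changes it means the same direction and the same call. Only counts of genes called and levels by class could be counted as moved. None of 132 alternative fold changes of the pair had an adjusted p under 0.05 (edgeR or DESeq2), and the lowest were 0.0795 for Mymk in cycling-like and 0.141 for Mymx in quiescent-like cells; 121 kept their direction. Few UMIs limit the quiescent-like values, which overlapped those of macrophage-like cells.

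With the run as a replicate block, edgeR called 32 genes in committed-like cells, 32 in cycling-like cells and 97 in quiescent-like cells, and within-run differences in share (replicate block, in points) turned within run 2 for all cells (Mymk -0.516, Mymx -1.18, both -0.689) and Myog-positive cells (Mymk -0.545, Mymx -0.661) and within run 1 for committed-like cells (Mymx -8.12, both -3.24). The block changed no call of the pair. DESeq2 called 2 genes in committed-like cells, 2 in cycling-like cells, 14 in quiescent-like cells, 12 over all cells and 1 for the contrast of committed-like with quiescent-like effects. Without a filter on low counts, edgeR called 2 in committed-like cells, 54 in cycling-like cells, 109 in quiescent-like cells and 2 for that contrast. The quiescent-like count was 11 with at most 10% mitochondrial UMIs, 1 without the 5% highest Scrublet scores, 17 at resolution 0.3 and 0 at 1.0, and 1 gene was called in committed-like cells without those of 800 or more sarcomere UMIs (added after seeing the data). Without the highest Scrublet scores, Mymx had a log2 fold change of 0.018 in committed-like cells and 0.0061 in cycling-like cells. Mymx in cycling-like cells averaged 45.4 CPM at resolution 0.3 and 41.4 CPM at 1.0. Differences in share turned without clusters 16 to 18 (all cells, Mymk -0.433, Mymx -2.11, both -0.874; Myog-positive cells, Mymx -0.653), with at least 2 UMIs (both, all cells -1.22 and committed-like -1.47; Myog-positive cells, Mymk -3.33 and Mymx -2.71) and without thinning (committed-like, Mymk -0.0061, Mymx -1.35, both -1.31; Myog-positive cells, both 12.6).

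Leaving out 1 library at a time, the counts called spanned 0 to 3 over all cells (3 without Pax7Cre replicate 2), 15 to 276 in quiescent-like (276 without miR-501KO replicate 2, 156 without miR-501KO replicate 1, 76 without Pax7Cre replicate 2, 15 without Pax7Cre replicate 1), 4 to 39 in cycling-like and 0 to 98 in committed-like cells (98 without Pax7Cre replicate 1, 68 without Pax7Cre replicate 2). Differences in share spanned, over all cells, -2.07 to 9.72 for Mymk, -3.13 to 12.2 for Mymx and -1.91 to 5.91 for both, each lowest without miR-501KO replicate 1; in committed-like cells -4.45 to 7.28 for Mymx and -2.22 to 8.76 for both, lowest without Pax7Cre replicate 2; and in Myog-positive cells -0.0927 to 4.04 for Mymk. Log2 fold changes spanned -0.23 to 0.17 for Mymk and -0.37 to 0.094 for Mymx over all cells, -0.62 to 0.45 for Mymk in quiescent-like cells, -0.066 to 0.75 for Mymk and -0.13 to 0.0051 for Mymx in cycling-like cells, -0.00020 to 0.38 for Mymk and -0.25 to 0.25 for Mymx in committed-like cells, and -0.073 to 0.64 for Mymk in the contrast of the 2 classes.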

Other observations

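Clusters left without a class also differed in the pair. Cluster 5, with 526 cells and a median of 27.4% mitochondrial UMIs, had Mymk at 23.4, 21.1, 41.4 and 16.2 CPM and Mymx at 62.1, 43.9, 50.3 and 31.2 CPM. Cluster 12 held 204 shallow cells (median 8260 UMIs), of which 71.6% came from miR-501KO replicate 1. In that library it had Mymk at 69.2 CPM and Mymx at 93.0 CPM. The 30 cells of miR-501KO replicate 2 had 53.1 and 101 CPM. The 20 cells of Pax7Cre replicate 1 had 11.3 and 16.9 CPM, which rest on 2 Mymk and 3 Mymx UMIs. The genotypes are therefore not compared in this cluster. Cluster 16, with 66 cells of miR-501KO replicate 1, had Mymk at 402 CPM and Mymx at 364 CPM, nearest of the 3 clusters from that library to committed-like cells.

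Within the cycling-like class, the 3 clusters differed in Mymx. Cluster 11, led by the mitotic genes Cdc20 and Ccnb1, had Mymx at 56.4, 55.6, 53.5 and 58.9 CPM. Cluster 6, led by replication-dependent histone genes, had 35.0, 45.2, 35.0 and 39.6 CPM. Cluster 8, led by Ung and Cdc6 of the G1/S boundary, had 13.1, 15.2, 13.2 and 9.40 CPM, within the 3.04 to 31.6 CPM of macrophage-like cells. The 3 ranges did not overlap, and Mymk was at 16.4 to 44.3, 10.6 to 16.2 and 3.83 to 8.61 CPM in the same clusters. Thinned shares of Mymx in clusters 11 and 6 overlapped, at 11.7% to 15.6% and 9.60% to 18.4%.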
